A study of Arabidopsis thaliana with 8 samples.

Results

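The 9 genes described here are the regulators that switch the seed maturation programme on and off and set dormancy in Arabidopsis thaliana: ABI3 (AT3G24650), FUS3 (AT3G26790), LEC1 (AT1G21970), LEC2 (AT1G28300), L1L (AT5G47670), VAL1 (AT2G30470), VAL2 (AT4G32010), DOG1 (AT5G45830) and ABI4 (AT2G40220). They were taken by locus from a table of 33279 genes, and all 9 were in it. The chosen genes were measured by RNA sequencing in seeds imbibed for 24 h, in 4 groups of 2 libraries, 8 in all. The groups were the wild type Col-0 without NaCl, Col-0 with 200 mM NaCl, serk1-1 without NaCl and serk1-1 with 200 mM NaCl. The label of serk1-1 gives the same ecotype, Columbia-0, for the mutant, which is named after the receptor kinase gene SERK1. Neither the kind of mutation nor the locus is stated, and the titles of the mutant samples also carry the words wild type, so the genotype was read from the genotype label. The libraries of a group are called biological replicates, but nothing says whether they came from separate seed lots, so p-values measure only the spread between these samples.

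During seed development, LEC1 and its close relative L1L, which are NF-YB subunits of a CCAAT-binding complex, act together with the B3 domain factors LEC2, FUS3 and ABI3. This network turns on storage protein, oil body and late embryogenesis abundant (LEA) genes, and ABI3 stays present in the dry seed, where it works with the hormone abscisic acid (ABA). VAL1 and VAL2 carry a B3 domain too, bind RY elements and recruit Polycomb silencing, which shuts the network down when the seedling starts to grow. DOG1 is a main quantitative regulator of dormancy, and ABI4 is an AP2 type factor that makes seeds sensitive to ABA and sugar and restrains germination.

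The regulators fell into 3 tiers of level. Values are FPKM, in which fragment numbers are scaled by gene length and by library size, so levels of different genes may be set side by side. ABI3 was the most abundant, between 114.18 and 219.85 FPKM, and ranked 855 of all genes by its mean. ABI4 followed at 16.33 to 157.52 FPKM, VAL1 at 18.12 to 23.1 and VAL2 at 4.65 to 10.8. FUS3 (1.1 to 2.68 FPKM) and DOG1 (0.41 to 3.23 FPKM) were weak. L1L stayed between 0.19 and 0.85 FPKM, LEC2 did not pass 0.06 and LEC1 did not pass 0.09. In every library ABI3 stood above each of the other 8 genes. The order of ABI4 and VAL1 was not the same throughout: ABI4 was the higher in 7 libraries, but in replicate 2 of serk1-1 with NaCl it was listed at 16.33 FPKM against 21.85 for VAL1. FUS3 lay above DOG1 in all 4 libraries without NaCl, and within both groups with NaCl their values overlapped.

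**Figure D1:**
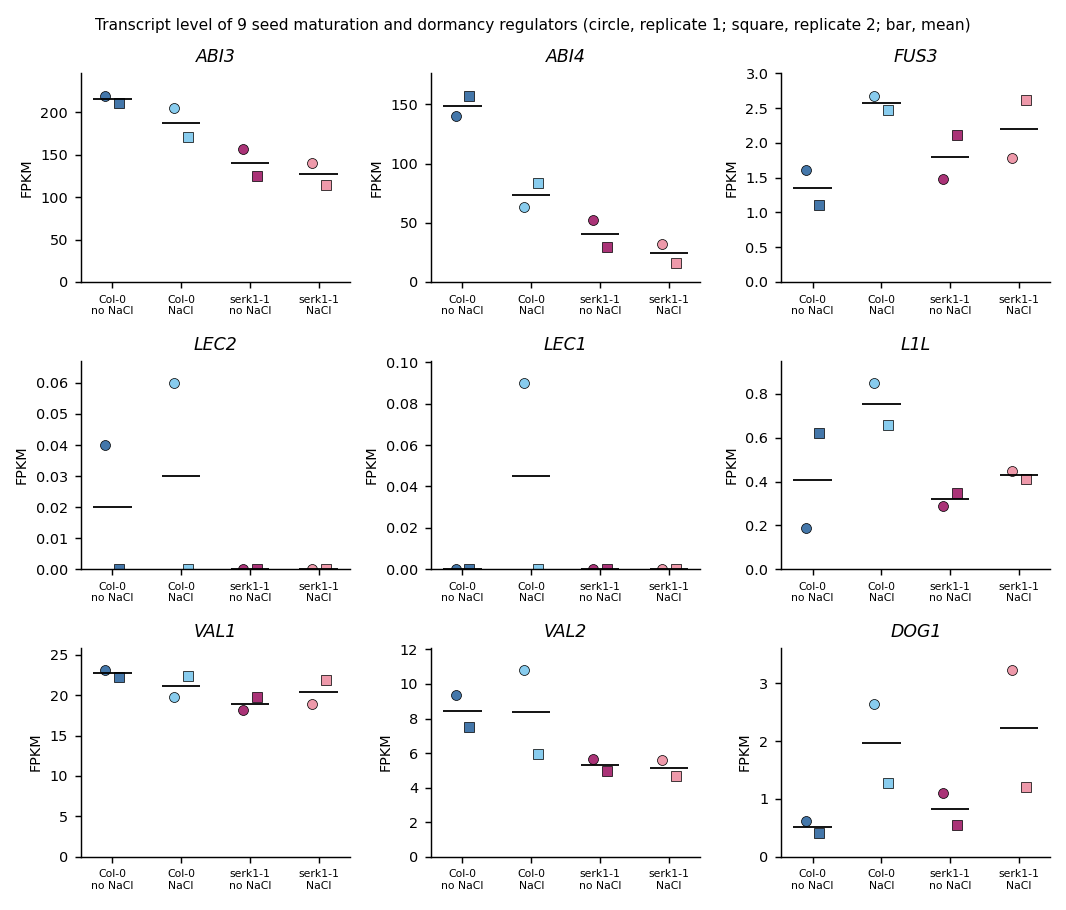
FPKM of each of the 9 regulators in the 8 libraries, 1 panel per gene with its own axis from 0; circles are replicate 1, squares replicate 2, and bars the mean of 2 libraries. ABI3 and ABI4 sit lower in every serk1-1 library than in every Col-0 library, VAL1 hardly differs, and DOG1 is higher in every library with NaCl than in every library without it.

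The upstream sequence of ABI3 is shown because this gene was lower in serk1-1. That of VAL1 is shown as a regulator whose genotypes overlapped with NaCl, though not without it. Each is the 250 bases before the annotated gene start, from the RefSeq annotation of TAIR10.1, written along the gene's strand. Capitals mark matches on either strand to the RY element bound by B3 factors (CATGCA), the core of the ABA response element (ACGTG), the CE1 core bound by ABI4 (CACCG) or the CCAAT box (CCAAT).
ABI3 upstream window, chr3:8997120-8997369, plus strand: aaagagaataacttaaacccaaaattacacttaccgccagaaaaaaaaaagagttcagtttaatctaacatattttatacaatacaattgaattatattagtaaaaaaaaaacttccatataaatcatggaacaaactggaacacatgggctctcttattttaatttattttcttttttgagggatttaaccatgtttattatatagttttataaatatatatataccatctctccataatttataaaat
VAL1 upstream window, chr2:12985278-12985527, minus strand: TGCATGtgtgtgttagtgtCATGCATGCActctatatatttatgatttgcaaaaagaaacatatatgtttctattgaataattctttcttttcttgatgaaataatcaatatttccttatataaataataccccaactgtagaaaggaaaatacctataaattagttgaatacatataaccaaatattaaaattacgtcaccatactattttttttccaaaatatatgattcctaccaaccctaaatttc

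The ABI3 window held none of the 4 motifs. VAL1 held 4 RY matches between 250 and 222 bases before the start, of which 3 overlap each other from base 231 on. RY matches stood in 8.43% of the 27443 windows of protein-coding genes and in 2 of the 8 regulators searched, the other being FUS3 with 1 match 25 to 20 bases before its start. LEC1 held 3 CCAAT boxes, a motif found in 46% of windows, and none of the 8 held the ABA response element core, found in 22.9%, or the CE1 core, found in 11.5%. A match describes letters in a window and is not a binding site.

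Of the 9 regulators, 6 were tested for differences (ABI3, ABI4, FUS3, VAL1, VAL2 and DOG1), since LEC1, LEC2 and L1L did not reach 1 FPKM in at least 2 libraries. Fold changes are differences between group means of log2(FPKM + 1) with their standard errors, which understate changes of weak genes. Tests were limma's moderated tests on 15336 genes, two-sided, with Benjamini-Hochberg adjustment over all of them and a call at an adjusted p under 0.05. In bulk seeds, fewer cells that express a gene and less RNA per cell cannot be told apart.

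ABI4 was lower in serk1-1 seeds than in wild-type seeds. Without NaCl it was at 140.31 and 157.52 FPKM for Col-0 and at 52.73 and 29.16 for serk1-1. With NaCl it was at 63.47 and 83.75 FPKM for Col-0 and at 31.96 and 16.33 for serk1-1. Every serk1-1 library lay below every Col-0 library, within each medium and across both. The mean fell from 149 ± 12.2 to 40.9 ± 16.7 FPKM (SD, n = 2 libraries per group) without NaCl, a log2 fold change of -1.89 ± 0.37 (adjusted p = 0.0250). With NaCl it fell from 73.6 ± 14.3 to 24.1 ± 11.1 FPKM, -1.63 ± 0.37 (adjusted p = 0.0478). Averaged over the media the change was -1.76 ± 0.26 (95% interval -2.38 to -1.14, adjusted p = 0.00443), and this held without any 1 library, between -1.99 and -1.53. The call without NaCl ended without either Col-0 library in that medium (adjusted p = 0.102 without replicate 1 and 0.111 without replicate 2) and without replicate 2 of serk1-1 (0.178). The call with NaCl ended whichever library was left out, at adjusted p from 0.0512 to 0.321, and after median-of-ratios scaling (-1.35, adjusted p = 0.0744). Without the filter on low values both calls of ABI4 within a medium ended (adjusted p = 0.0533 and 0.0887), while the averaged one held (0.0128).

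ABI3 was lower in the mutant as well, by a smaller factor. Without NaCl its values were 219.85 and 210.97 FPKM in Col-0 against 157.18 and 124.42 in serk1-1. With NaCl they were 204.77 and 170.61 FPKM against 140.02 and 114.18. The genotypes did not overlap in either medium. Averaged over the media, the mean of 134 FPKM in serk1-1 was 0.665 times the 202 FPKM of Col-0, a log2 fold change of -0.59 ± 0.15 (adjusted p = 0.0232). The comparisons within a medium were not called (-0.62 ± 0.21, adjusted p = 0.0958, without NaCl and -0.56 ± 0.21, adjusted p = 0.137, with it). The averaged call ended after median-of-ratios scaling (-0.37, adjusted p = 0.0941) and without replicate 1 or 2 of Col-0 without NaCl (adjusted p = 0.0696 and 0.0553), replicate 1 of Col-0 with NaCl (0.0615), or replicate 2 of serk1-1 without NaCl (0.0922) or with NaCl (0.103).

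These were the only called regulators. Of the 6 tested, 1 was called lower in serk1-1 without NaCl and 1 with NaCl (ABI4 both times), against 5.07% and 4.14% of all genes tested (11.1% and 6.27% in either direction). None was called higher there, against 6% and 2.13%. Averaged over the media 2 of 6 were called lower, against 18.9% of all genes, and 0 were called higher, against 11.9%, or 30.8% in either direction. The median gene was itself lower in serk1-1, by -0.19 averaged over the media, and median-of-ratios scaling brought that median close to 0. After that scaling 2554 genes were called higher and 2268 lower, against 1825 and 2897 without it. With NaCl alone it gave 482 higher and 490 lower, against 327 and 635. ABI4 stood at -1.55 (adjusted p = 0.00661) on the scaled values.

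Of the silencing factors, VAL2 was lower in serk1-1 without passing the threshold. Its values were 9.35 and 7.51 FPKM for Col-0 and 5.63 and 4.94 for serk1-1 on medium without NaCl. With NaCl they were 10.8 and 5.96 for Col-0 and 5.59 and 4.65 for serk1-1. The lowest Col-0 value, 5.96 FPKM, was just above the highest serk1-1 value, 5.63 FPKM. The averaged log2 fold change was -0.58 ± 0.21 (adjusted p = 0.0776), and of the 8 fits with a library left out it passed in 1, that lacking replicate 2 of Col-0 with NaCl (-0.77, adjusted p = 0.0231). An annotated long non-coding RNA lies antisense to VAL2 in TAIR10.1, and without strand its reads cannot be told from those of VAL2. VAL1 was at 23.1 and 22.29 FPKM for Col-0 and at 18.12 and 19.76 for serk1-1 on medium without NaCl. With NaCl it was at 19.8 and 22.43 FPKM for Col-0 and at 18.96 and 21.85 for serk1-1, so the genotypes overlapped. Its averaged difference was -0.15 ± 0.13 (95% interval -0.45 to 0.15, adjusted p = 0.405), and its sign turned after median-of-ratios scaling (0.06). ABI3, ABI4 and VAL2 were the 3 of 6 tested regulators whose serk1-1 libraries all lay below all Col-0 libraries, a pattern shown by 20.4% of all genes tested (the reverse by 12.3%, either by 32.7%). Without NaCl 4 of 6 were lower with no overlap, VAL1 being the other, against 34.9% of all genes (25.6% higher, 60.6% either). With NaCl 3 of 6 were, against 36.8% (19.1% higher, 55.9% either).

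Ratios within a library do not depend on how libraries are scaled. ABI4 over VAL1 was 6.07 and 7.07 for Col-0 on medium without NaCl and 3.21 and 3.73 with NaCl. For serk1-1 it was 2.91 and 1.48 on medium without NaCl and 1.69 and 0.747 with NaCl. No serk1-1 ratio reached a Col-0 ratio. ABI3 over VAL1 was 9.52 and 9.46 for Col-0 and 8.67 and 6.30 for serk1-1 on medium without NaCl. With NaCl it was 10.3 and 7.61 for Col-0 and 7.39 and 5.23 for serk1-1. ABI4 over ABI3 was 0.638 and 0.747 for Col-0 and 0.335 and 0.234 for serk1-1 on medium without NaCl. With NaCl that ratio was 0.310 and 0.491 for Col-0 and 0.228 and 0.143 for serk1-1. For these ratios too, each serk1-1 library lay below both Col-0 libraries of its own medium, and the genotypes overlapped only when the media were pooled.

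**Figure D2:**
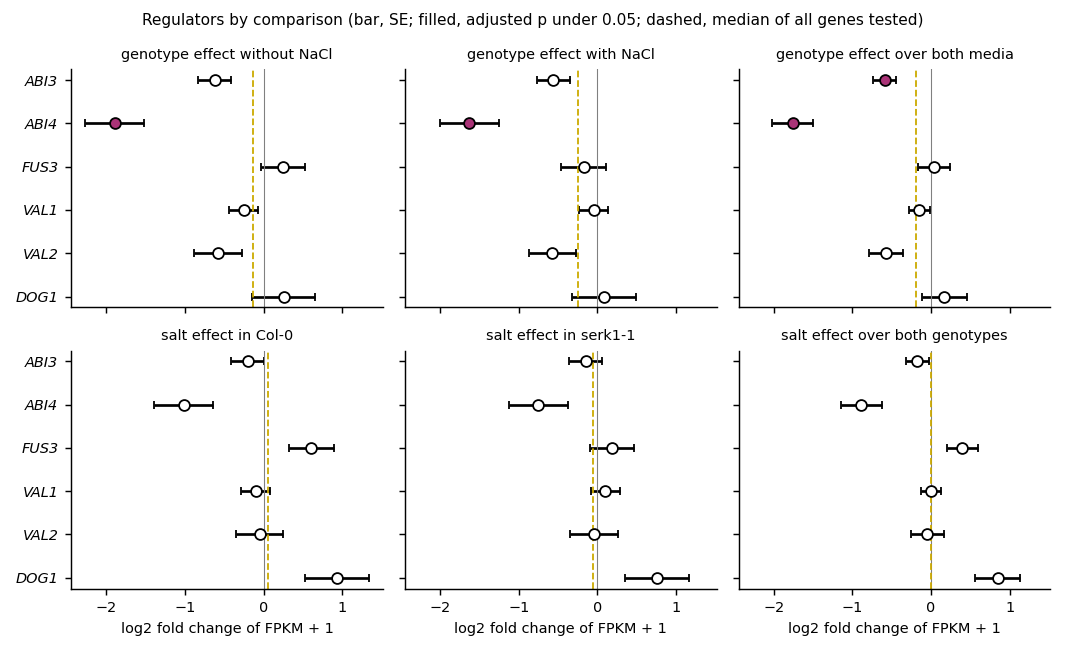
Log2 fold change of FPKM + 1 (x axis) for the 6 tested regulators in 6 comparisons; bars are standard errors, filled points have an adjusted p under 0.05, and the dashed line is the median of all genes tested. ABI4 is filled in all 3 genotype panels, ABI3 in the averaged one, and no point is filled in the salt panels.

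With NaCl, ABI4 had lower means and DOG1 higher means in both genotypes, and neither passed the test. In Col-0 the mean of ABI4 was 149 FPKM without and 73.6 FPKM with NaCl, a log2 difference of -1.02 ± 0.37 (adjusted p = 0.369). In serk1-1 the means were 40.9 and 24.1 FPKM, a difference of -0.75 ± 0.37 (adjusted p = 1), and the libraries overlapped. Averaged over the genotypes ABI4 stood at -0.88 ± 0.26 (95% interval -1.50 to -0.27, adjusted p = 0.199). For ABI3 the averaged salt difference was -0.17 ± 0.15 (adjusted p = 0.649).

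DOG1 was at 0.62 and 0.41 FPKM in Col-0 without NaCl and at 2.65 and 1.28 with NaCl. In serk1-1 it was at 1.11 and 0.54 FPKM without NaCl and at 3.23 and 1.21 with NaCl. All 4 libraries with NaCl lay above all 4 without it, as in 2.54% of all genes tested (3.23% the other way, 5.77% in either). Without NaCl only replicate 1 of serk1-1 reached 1 FPKM, so DOG1 passed the filter on low values only through libraries with NaCl. Its separation of the media therefore supports nothing on its own. The averaged mean was 2.09 FPKM with NaCl against 0.670 without, 3.12 times as high, and the log2 difference of FPKM + 1 was 0.85 ± 0.29 (95% interval 0.18 to 1.52, adjusted p = 0.233). Replicate 1 was the higher of the 2 libraries in each of the 4 groups for DOG1, as it was for ABI3 and VAL2. The genotypes overlapped for DOG1 in both media (averaged difference 0.17 ± 0.29, adjusted p = 0.675), and that sign turned without replicate 1 of serk1-1 with NaCl (-0.07) and on leaving out replicate 2 of Col-0 with NaCl (-0.00065).

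FUS3 showed the same order in Col-0, with 1.61 and 1.1 FPKM without NaCl and 2.68 and 2.47 with it (0.61 ± 0.28, adjusted p = 0.484). In serk1-1 its values were 1.48 and 2.12 FPKM without and 1.78 and 2.61 with NaCl, and they overlapped (0.19 ± 0.28, adjusted p = 1). Its averaged genotype difference was 0.04 ± 0.20 (95% interval -0.43 to 0.50, adjusted p = 0.899), of changing sign when single libraries were left out. No regulator was called for salt: 0 of 6 in Col-0, where 0.0456% of all genes were called (0.0326% higher and 0.013% lower), 0 of 6 in serk1-1, where 0% were, and 0 of 6 averaged over the genotypes, where 0.274% were (0.209% higher and 0.0652% lower). Within Col-0, DOG1 and FUS3 were higher and ABI3 and ABI4 lower with no overlap between the media, 2 of 6 each way, against 19.7% and 16.2% of all genes (35.9% in either direction). Within serk1-1 only DOG1 of the 6 did not overlap, against 13.7% of all genes higher, 21.4% lower and 35.1% in either direction. For DOG1 the limit set by the filter, given above, applies to these counts too. At an unadjusted p under 0.05, 1 of the 6 was past the threshold in Col-0, 0 in serk1-1 and 2 averaged, against 11.3%, 4.31% and 15% of all genes tested. In limma's test of the difference between the salt effects of the genotypes, 0 of 6 regulators and 0% of all genes were called (adjusted p = 0.99994 for each of the 6), with 0 of 6 and 165 genes at an unadjusted p under 0.05. The difference was 0.27 ± 0.53 for ABI4 (95% interval -0.97 to 1.5) and -0.17 ± 0.58 for DOG1 (-1.51 to 1.17), so differences of either sign lie within the intervals.

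The regulators at the top of the network in young embryos were at or near the floor. LEC1, which is needed for embryo maturation, was listed at 0.09 FPKM in replicate 1 of Col-0 with NaCl and at 0 in the other 7 libraries. LEC2 was listed at 0.04 FPKM in replicate 1 of Col-0 without NaCl, at 0.06 in replicate 1 of Col-0 with NaCl and at 0 in the other 6. L1L was at 0.19 and 0.62 FPKM for Col-0 and at 0.29 and 0.35 for serk1-1 on medium without NaCl. With NaCl the values were 0.85 and 0.66 for Col-0 and 0.45 and 0.41 for serk1-1. In TAIR10.1 the L1L gene overlaps both of its neighbours, so some of these fragments may belong to them. VAL3, the third gene of the VAL family, was at 0.45 to 0.73 FPKM and was not tested.

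The known targets of ABI3, FUS3 and LEC2 went the other way from ABI3 and ABI4 between the genotypes. In a list of 17 storage, oil body and LEA genes, 13 were called higher in serk1-1 without NaCl and 9 with NaCl, against 6% and 2.13% of all genes. Averaged over the media, 15 of the 17 rose and 0 fell, against 11.9% and 18.9%, with a median of 1.94 against -0.19 for all genes. The list was chosen with earlier results of these data known, so these counts are no independent support. CRC, a cruciferin storage globulin, rose by 3.21 ± 0.42 (adjusted p = 0.00290). EM1 and EM6, LEA proteins whose genes are classic targets of ABI3 and ABI5, rose by 2.47 ± 0.20 and 2.35 ± 0.31 (adjusted p = 8.61e-04 and 0.00304). Without NaCl, the summed share of these 17 genes in total FPKM was 0.843% and 1.5% for Col-0 but 4.06% and 6.45% for serk1-1. With NaCl it was 1.39% and 2.66% for Col-0 but 5.80% and 8.82% for serk1-1. Thus each serk1-1 library, with less ABI3 and ABI4 transcript than any Col-0 library, had a larger share of these transcripts than any Col-0 library. CRA1 was the largest single gene of the sum in every library, at 2534 to 8733 FPKM in Col-0 and 14593 to 31388 in serk1-1. The sums themselves were 6556 to 21884 FPKM in Col-0 and 36209.5 to 78053 in serk1-1. With NaCl all 17 genes had positive values in both genotypes (medians 1.01 in Col-0 and 0.63 in serk1-1), and 0 of them passed the test (smallest adjusted p = 0.0985 in Col-0 and 0.985 in serk1-1), while 9 and 5 had an unadjusted p under 0.05, against 11.3% and 4.31% of all genes.

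**Figure D3:**
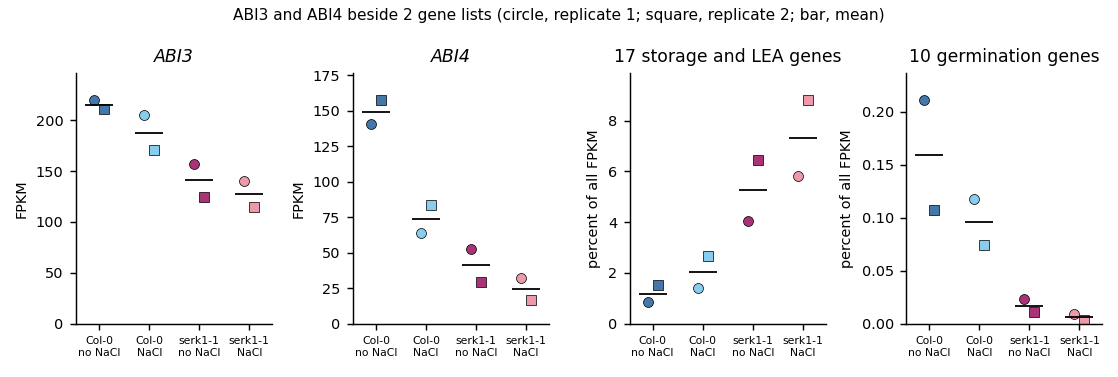
ABI3 and ABI4 in FPKM and, in percent of all FPKM of a library, the sums of 17 storage and LEA genes and of 10 germination genes; circles are replicate 1, squares replicate 2, bars the mean. From Col-0 without NaCl to serk1-1 with NaCl the means of ABI3, ABI4 and the germination genes step down, while those of the storage and LEA genes step up.

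Among 19 partner factors of the network, 17 were tested, and averaged over the media 2 were called higher and 2 lower in serk1-1. Of all genes tested 11.9% were called higher and 18.9% lower, so these counts do not exceed the background. EEL, a bZIP factor related to ABI5 that binds the same promoter elements of the Em genes, was at 7.53 and 6.08 FPKM for Col-0 and at 26.29 and 56.22 for serk1-1 on medium without NaCl. With NaCl it was at 13.81 and 13.26 FPKM against 31.8 and 62.4. All serk1-1 libraries lay above all Col-0 libraries, and the averaged change was 2.0 ± 0.29 (adjusted p = 0.00407), held without any 1 library. NF-YA9, which encodes a subunit of the CCAAT-binding complex, rose by 0.44 ± 0.13 (adjusted p = 0.0354). The bZIP gene BZIP25 and the MADS box gene AGL18 fell by 0.52 ± 0.14 and 0.81 ± 0.22 (adjusted p = 0.0322 and 0.0295). These last 2 calls ended after median-of-ratios scaling (adjusted p = 0.114 and 0.163), and those of NF-YA9, BZIP25 and AGL18 ended when 1 of several libraries was left out (adjusted p up to 0.131, 0.120 and 0.0977). ABI5, the bZIP partner of ABI3 in the ABA response, was at 67.9 and 33.31 FPKM for Col-0 and at 83.96 and 63.73 for serk1-1 on medium without NaCl. With NaCl the values were 135.37 and 46.85 for Col-0 and 97.81 and 74.59 for serk1-1. Its genotypes overlapped (0.35 ± 0.36, adjusted p = 0.479).

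Of 19 repressors of the embryo programme besides VAL1 and VAL2, 18 were tested, and averaged over the media 4 were called lower and 2 higher in serk1-1, counts near the background of 18.9% and 11.9% of all genes. MSI1, a histone-binding subunit of Polycomb and chromatin assembly complexes, fell by 1.13 ± 0.18 (adjusted p = 0.00525), from 62.68 and 56.48 FPKM in Col-0 to 32.24 and 22.83 in serk1-1 without NaCl. CLF, a histone methyltransferase of the Polycomb group, fell by 1.01 ± 0.29 (adjusted p = 0.0347), and the histone deacetylase HDA6 by 0.73 ± 0.12 (adjusted p = 0.00640). In serk1-1 only replicate 1 without NaCl reached 1 FPKM for CLF (1.21), so CLF passed the filter on low values only through Col-0 libraries. Its call, 1 of the 4 lower ones, supports nothing on its own and ended without the filter (adjusted p = 0.0560). RING1B, a Polycomb RING finger protein, rose by 1.02 ± 0.19 (adjusted p = 0.00884). The calls of MSI1, HDA6 and RING1B held without any 1 library, and that of CLF ended for 5 of the 8 (adjusted p up to 0.126).

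DOG1 belongs to a small family, of which DOGL2 and DOGL3 were called higher in serk1-1 averaged over the media. DOGL2 was at 18.24 and 9.67 FPKM for Col-0 and at 52.66 and 90.37 for serk1-1 on medium without NaCl. With NaCl the values were 27.11 and 32.23 for Col-0 and 105.28 and 121.63 for serk1-1. DOGL3 was at 24.27 and 10.39 FPKM against 117.04 and 61.72 without NaCl, and at 35.9 and 33.8 against 136.42 and 94.11 with NaCl. Every serk1-1 library lay above every Col-0 library for both genes. DOGL2 rose by 2.1 ± 0.24 and DOGL3 by 2.01 ± 0.31 averaged over the media (adjusted p = 0.00214 and 0.00469), and both calls held without any 1 library. How reads shared between family members were counted is not given in the sources used here, so the split between relatives is uncertain.

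DOGL4, which in Arabidopsis acts on seed storage gene expression, followed the medium more than the genotype. It was at 29.09 and 9.11 FPKM in Col-0 without NaCl and at 127.08 and 50.9 with NaCl, and in serk1-1 at 34.97 and 32.56 without and 106.46 and 54.01 with NaCl. As for DOG1, all 4 libraries with NaCl lay above all 4 without, but the averaged salt difference of 1.69 ± 0.43 was not called (adjusted p = 0.141). AHG1, a protein phosphatase of ABA signalling that binds DOG1, varied from 212.38 to 757.26 FPKM with no separation of groups (genotype difference 0.29 ± 0.42, adjusted p = 0.615). DOGL1 was at 7.99, 2.86, 22.1 and 5.63 FPKM in the Col-0 libraries and at 5.87, 3.23, 9.77 and 5.28 in those of serk1-1, with overlap (-0.36 ± 0.46, adjusted p = 0.577), and DOGL4 also overlapped between the genotypes (0.45 ± 0.43, adjusted p = 0.439). Of the 6 genes of this list, 2 rose in serk1-1 and 0 fell, against 11.9% and 18.9% of all genes tested.

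**Figure D4:**
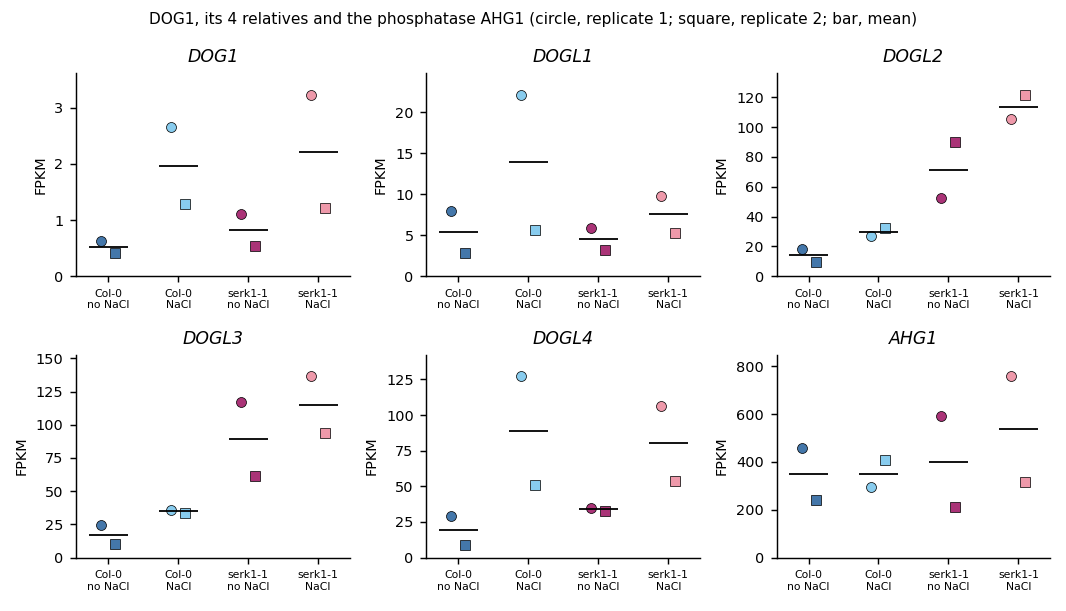
FPKM of DOG1, 4 DOG1-like genes and AHG1 by group, each axis from 0; circles are replicate 1, squares replicate 2, bars the mean of 2 libraries. DOGL2 and DOGL3 separate the genotypes, whereas DOG1 and DOGL4 separate the media.

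Of a list of 10 chromatin, transcription and dormancy factors grouped around DOG1, 8 were tested. Averaged over the media 3 fell in serk1-1 and 0 rose, against 18.9% and 11.9% of all genes. The median was -0.36, against -0.19 for all genes. The list was not sorted by whether a member raises or lowers DOG1. HDA9, a histone deacetylase, fell by 0.77 ± 0.14 (adjusted p = 0.00832), and SUVH4, a histone methyltransferase, by 0.88 ± 0.18 (adjusted p = 0.0118). RDO5, a phosphatase-like protein needed for dormancy, fell by 0.69 ± 0.20 (adjusted p = 0.0378), a call that ended after median-of-ratios scaling (adjusted p = 0.188) and without any 1 of 6 libraries (up to 0.142). DOG1 itself did not differ detectably between the genotypes, as given above. For SUVH4 the call ended without replicate 2 of serk1-1 in the medium without NaCl (adjusted p = 0.0531) or replicate 1 with NaCl (0.0503).

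Around ABI4, 4 of 9 targets and regulators were tested, and averaged over the media 3 were called lower in serk1-1 and 0 higher, against 18.9% and 11.9% of all genes. WRKY18, a factor that acts with WRKY40 in ABA signalling, was at 12.14 and 12.92 FPKM for Col-0 and at 2.82 and 3.01 for serk1-1 on medium without NaCl. With NaCl the values were 44.8 and 19.19 for Col-0 and 6.86 and 4.28 for serk1-1. It fell by 2.01 ± 0.28 (adjusted p = 0.00342), held without any 1 library. WRKY40, which is known to bind the ABI4 promoter and repress it, was at 0.54 to 3.39 FPKM in Col-0 and at 0.33 to 0.6 FPKM in serk1-1, with overlap. It passed the filter on low values only through Col-0 libraries, so its call (-0.81 ± 0.21, adjusted p = 0.0256) supports nothing on its own. That call also ended without any 1 of 6 libraries (adjusted p up to 0.0887). CYP707A2, an ABA hydroxylase whose gene ABI4 is known to repress, was at 2.64 and 2.44 FPKM for Col-0 and at 1.77 and 2.44 for serk1-1 on medium without NaCl. With NaCl it was at 13.78 and 12.44 FPKM for Col-0 and at 4.06 and 3.58 for serk1-1. It was the single list gene called for salt averaged over the genotypes (1.32 ± 0.17, adjusted p = 0.0482), a call that ended with other filters and without 7 of the 8 libraries (adjusted p up to 0.224). In the medium with NaCl it was lower in serk1-1 by a log2 fold change of -1.55 ± 0.24 (adjusted p = 0.0229), a call that ended when replicate 1 of Col-0 with NaCl (0.0944) or replicate 1 or 2 of serk1-1 with NaCl (0.0783 and 0.222) was left out.

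**Figure D5:**
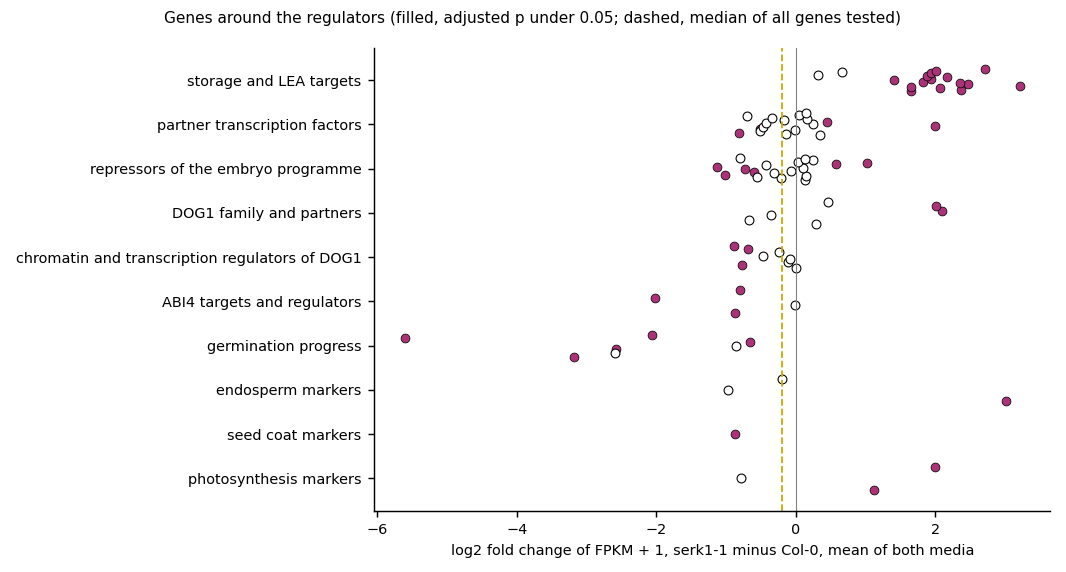
Log2 fold change of FPKM + 1, serk1-1 minus Col-0 averaged over both media (x axis), for each tested gene of 10 lists (rows); filled points have an adjusted p under 0.05 and the dashed line is the median of all genes tested, -0.19. Of the storage and LEA genes 15 are filled on the right, and of the germination genes 5 are filled on the left.

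Some markers of seed stage and tissue differed between the genotypes, others did not or were near 0, and their part in the results was not tested. Of 10 germination and cell cycle genes 7 were tested, and averaged over the media 5 were called lower in serk1-1 and 0 higher, against 18.9% and 11.9% of all genes. Of these 5, 1 passed the filter on low values only through Col-0 libraries. TSO2, a ribonucleotide reductase subunit, was at 288.84 to 468.85 FPKM in Col-0 and at 3.58 to 11.05 in serk1-1. The summed level of the list was 612 to 1643 FPKM in Col-0 and 33.3 to 203 in serk1-1, and CYCB1;4 was at 0 in all 8 libraries. Endosperm markers summed to 213 to 279 FPKM in Col-0 and 1386 to 2006 in serk1-1, of which EPR1, an extensin-like gene of the germinating endosperm, made up 82.7% to 94.2% in Col-0 and 97.8% to 99.2% in serk1-1. EPR1 rose by 3.01 ± 0.17 (adjusted p = 6.67e-04), 1 of 3 tested. The other 2 tested, MAN7 and MAN5, had negative averaged differences and were not called, and the median of the 3 was -0.20. ZOU, a regulator of the developing endosperm, was at 0 in 7 libraries. Seed coat markers summed to at most 4.63 FPKM, with BAN and TT10 at 0 throughout, and 1 of 1 tested, MUM4, fell (adjusted p = 0.0485, and up to 0.155 with 1 library left out). Photosynthesis markers summed to 78.4 to 106 FPKM in Col-0 and 278 to 399 in serk1-1, with 2 of 3 tested called higher and the antenna genes LHCB1.1 and LHCB2.1 at or below 0.05 FPKM. Of the 2, the call of LHCB4.2 (adjusted p = 0.0463) ended without the filter (0.0914) and without any 1 of 6 libraries (up to 0.119). The other called gene was RBCS1A, which made up most of the photosynthesis sum. It was at 62.33 to 82.73 FPKM in Col-0 and at 260.34 to 370.48 in serk1-1. PSAF, the remaining tested gene of that list, had a negative averaged difference and was not called. The storage and LEA genes, which mark seeds, were above 0 in all 8 libraries.

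Patterns most like those of the regulators were looked up over the 8 libraries by Pearson's r of log2(FPKM + 1), which share their genotypes and media. ABI4 was closest to RABA1g (r = 0.998), a small GTPase gene, and to AT3G18535 (0.995). ABI3 was closest to PPR596 and RBL (both 0.997). VAL2 was closest to AT2G40630 (0.997) and AT2G34050 (0.994), FUS3 to LSH3 (0.955) and AT5G48620 (0.953), DOG1 to AT2G45040 and AT3G14960 (both 0.962), and VAL1 to Tudor1 (0.927) and HUB2 (0.889). Between the regulators themselves, r was 0.938 for ABI3 and ABI4, 0.897 for ABI3 and VAL2 and 0.703 for ABI4 and VAL2, while DOG1 and FUS3 stood at 0.458. The other pairs ran from -0.553 (FUS3 and ABI4) to 0.460 (VAL1 and ABI4), with both signs among them. HUB2 is also on the list of factors around DOG1, where it was not called.

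Over all 8 libraries, FPKM summed to between 777936 and 821247 in Col-0 but to between 885375 and 901215 in serk1-1, with 18571 to 20648 genes above 0 per library. The locus AT2G01021, a short gene next to annotated ribosomal RNA genes in RefSeq TAIR10.1, took 10922 to 41978 FPKM in Col-0, 7589 and 11965 in serk1-1 without NaCl, and 2826 and 0 with NaCl, and its part in the results was not tested. Sequencing depth is unknown, because FPKM do not keep read numbers, so no counting error can be given. Across tested genes, replicates of a group correlated with r from 0.953 to 0.980.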

How the data were processed

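Total RNA of imbibed seeds was sequenced as paired ends after TruSeq library preparation, per the labels' protocols. The authors deposited FPKM per gene in 1 table for 8 libraries. These were made with FastQC 0.10.1, TopHat2 and Cufflinks 2.1.1 on TAIR10, per the submitters' processing notes; no source used here gives the annotation, the strand setting or how reads matching several loci were counted. Low values were searched for steps of whole fragments between libraries and none stood out, so depth is unknown.

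The 15336 genes reaching 1 FPKM in 2 or more libraries were fitted as log2(FPKM + 1) with limma 3.58.1 in R 4.3.3, as 4 group means in 1 fit with 4 residual and 3.48 prior degrees of freedom and a mean-variance trend. The 7 comparisons were NaCl against none within Col-0 and within serk1-1, serk1-1 against Col-0 without and with NaCl, the difference between the NaCl effects, and the genotype and NaCl effects averaged. With 2 libraries against 2, an exact permutation test cannot fall below 0.333. The fit was tested on simulated data. The rule on named genes took the 9 members, up to 4 called genes of each of 10 lists (103 genes), 9 further genes fixed by name and the 2 most similar genes per tested member. Members and lists were chosen with earlier results of these data known, so a count above the share of all genes is no independent support. Upstream sequences and gene positions come from RefSeq TAIR10.1, to which 32815 loci matched; the deposited table holds no coordinates. The upstream window of 1 member is not reported here. Figures were drawn with matplotlib 3.10.9 in Python 3.11.15. Alternatives were no filter or a filter at a mean of 5 FPKM, a pseudocount of 0.1, median-of-ratios scaling, a replicate block, and leaving out single libraries.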

Additional observations from a re-analysis of the deposited data

How the results depend on the processing

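Depth is unknown and each group has 2 libraries, so small differences of weak genes such as DOG1 and FUS3 could not be resolved. The averaged fall of ABI4 passed under every alternative run, while its calls within a medium and that of ABI3 did not, as given above. The labels give replicate numbers but no shared batch, so these pair nothing by design; deviations of replicate 1 from its group mean correlated between groups at r from 0.397 to 0.720. With the replicate block, DOG1 and ABI4 passed for NaCl averaged (adjusted p = 0.0223 and 0.0491) and VAL2 for genotype averaged (0.00993). ABI3 then passed for genotype without and with NaCl (0.00940 and 0.0147), and VAL2 without NaCl (0.0482). The NaCl call of DOG1 carries the limit of the filter given above. When a library was left out, the remaining one was assumed to vary like the other groups. The cause of the changes below was not tested. With a pseudocount of 0.1, the number of genes called was 2 for NaCl in Col-0 and 2 for NaCl in serk1-1. With no filter, the number of genes called was 1037 for genotype without NaCl, 469 for genotype with NaCl and 3 for NaCl averaged. The number of regulators called was then 0 for genotype without NaCl and 0 for genotype with NaCl. With a minimum mean of 5 FPKM, the number of genes called was 0 for NaCl in Col-0 and 21 for NaCl averaged. With median-of-ratios scaling, the number of genes called was 24 for NaCl in Col-0, 1 for NaCl in serk1-1 and 174 for NaCl averaged. The number of regulators called was then 0 for genotype with NaCl and 1 for genotype averaged. Log2 fold changes that turned sign were 0.027 (VAL2, NaCl in serk1-1), 0.033 (FUS3, genotype with NaCl), 0.23 (VAL1, genotype with NaCl), 0.063 (VAL1, genotype averaged) and 0.013 (VAL1, NaCl averaged). With the replicate block, the number of genes called was 1101 for NaCl in Col-0, 12 for NaCl in serk1-1, 6153 for genotype without NaCl, 5869 for genotype with NaCl, 8681 for genotype averaged and 2168 for NaCl averaged. The number of regulators called was then 3 for genotype without NaCl, 2 for genotype with NaCl and 2 for NaCl averaged. With single libraries left out, the genes called numbered 0 to 36 for NaCl in Col-0, 0 to 2 for NaCl in serk1-1, 13 to 1935 for genotype without NaCl, 2 to 709 for genotype with NaCl, 0 to 2 for the difference of the NaCl effects, 1981 to 5377 for genotype averaged and 0 to 78 for NaCl averaged. With single libraries left out, the regulators called numbered 0 to 1 for genotype without NaCl, 0 to 0 for genotype with NaCl and 1 to 3 for genotype averaged. Signs turned among these for NaCl in Col-0, at -0.43 to 0.33 for VAL2. Signs turned among these for NaCl in serk1-1, at -0.31 to 0.023 for ABI3, -0.00086 to 0.38 for FUS3 and -0.15 to 0.071 for VAL2. Signs turned among these for genotype with NaCl, at -0.36 to 0.015 for FUS3, -0.15 to 0.050 for VAL1 and -0.38 to 0.55 for DOG1. Signs turned among these for the difference of the NaCl effects, at -0.11 to 0.23 for ABI3, -0.37 to 0.39 for VAL2, -0.64 to 0.30 for DOG1 and -0.20 to 0.73 for ABI4. Signs turned among these for genotype averaged, at -0.057 to 0.13 for FUS3, -0.065 to 0.40 for DOG1, -0.073 to 0.66 for AHG1 and -0.024 to 0.73 for ABI5. Signs turned among these for NaCl averaged, at -0.050 to 0.048 for VAL1, -0.24 to 0.14 for VAL2 and -0.11 to 0.63 for AHG1.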
